A study of Mus musculus with 7 samples.

Results

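Potassium channel genes were examined in islet RNA of pregnant mice, and comprised every gene name of the deposited table that starts with KCN in capitals, together with ABCC8 and ABCC9, the sulfonylurea receptors that complete the ATP-sensitive potassium channel. This rule gave 100 of 34082 gene names. Of these, 48 had a mean over the 7 mice of at least 0.5 TPM (transcript abundance per length, scaled to a fixed total per library) and were tested among 14840 genes. The remaining 52 are described by their levels.

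Islets came from 4 βPrlR+/- mice and 3 Prlr+/- mice, with 1 library per mouse, and the comparison asked how a deletion of the prolactin receptor in all tissues differs, for the islet, from one in β-cells. The Prlr+/- mice carried a heterozygous deletion of the receptor in the whole body. The βPrlR+/- mice carried a floxed exon 5 of the receptor gene and a tamoxifen-inducible Cre under the Pdx1 promoter, which the study takes to be active, within the adult pancreas, in β-cells alone. They received 4 mg of tamoxifen per day for 5 days at 8 weeks of age, which the Prlr+/- mice did not, so genotype, Cre and tamoxifen cannot be told apart. All 7 were C57BL/6 females on day 15 of pregnancy, and by the labels of the tissue that lost the receptor both groups carried a deletion. The titles of the βPrlR+/- libraries contain CkoWt, which no source used here explains. For these libraries the deletion rests on the tissue label and the methods of the study, and the receptor's level here does not check it. By RT-qPCR the study found the receptor reduced in βPrlR+/- islets against littermates without the floxed allele. It reported a reduction of similar size in Prlr+/- islets, so a difference between these groups need not appear. The deposited labels describe the β-cell deletion as homozygous and the methods of the study as heterozygous, and the ages are given as 3 to 4 months in the former and 4 to 5 months in the latter. Islets were picked by hand, and no batch is named.

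Values are scaled TPM, which are TPM divided by a median-ratio factor of each library, and can be compared between genes because TPM is per transcript length. The insulin genes took 46.1 to 58.9% of all TPM in every library, as islet RNA does. The targeted gene, PRLR, stood at 55.6, 38.4, 47.3 and 38.8 scaled TPM in βPrlR+/- mice 1 to 4 and at 36.1, 51.1 and 35.05 in Prlr+/- mice 1 to 3, so the groups overlapped and the gene does not separate the labels. Sequencing depth is not kept by TPM, so values carry the spread between mice and no counting interval.

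Potassium channels set the membrane potential of the β-cell. When glucose is metabolised, ATP closes the ATP-sensitive (KATP) channel, the membrane depolarises, calcium enters and insulin is released. Voltage-gated, calcium-activated, KCNH and 2-pore-domain channels then repolarise the membrane or hold it at rest, and the inward rectifiers opened by G proteins carry part of the inhibition by noradrenaline and somatostatin. Prolactin is known to lower the glucose concentration at which islets start to secrete.

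All pore-forming subunits share a selectivity filter, the loop through which potassium passes. The coding sequences below come from GENCODE M21 (GRCm38). They are shown because they mark what divides the list into pore subunits, silent ones included, and auxiliary proteins. The capitals are the 5 codons of the filter pattern (threonine or serine, any residue, glycine, then tyrosine, phenylalanine or leucine, then glycine), with 9 bases on each side.
KCNK16 first pore loop: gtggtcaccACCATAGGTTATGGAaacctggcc
KCNK12 first pore loop: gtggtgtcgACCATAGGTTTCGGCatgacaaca
KCNK12 second pore loop: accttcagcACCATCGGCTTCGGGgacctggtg
KCNJ3: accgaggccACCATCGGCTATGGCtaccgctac
KCNJ8: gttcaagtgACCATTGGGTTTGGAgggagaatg
KCNH6: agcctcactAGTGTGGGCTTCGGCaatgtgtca
KCNC4: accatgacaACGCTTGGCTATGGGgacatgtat
KCNF1: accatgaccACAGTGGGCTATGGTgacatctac
KCNMA1: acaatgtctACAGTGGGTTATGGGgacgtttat

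The pattern was found in 77 of 77 pore-forming subunits with a coding sequence and in 0 of the 17 members that form no pore, namely the sulfonylurea receptors and the KCNAB, KCNE, KCNIP and KCNMB auxiliary subunits with KCNRG. Among all 21553 coding genes it occurred in 1168 (5.42%), so the 5 codons alone do not define a channel. Each of the 14 KCNK genes held the pattern at both of its pore loops, the feature that names the 2-pore-domain family. Conducting and silent subunits were alike in it, since KCNF1, which forms no working channel by itself and modifies other Kv subunits, also holds it.

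The potassium channel genes took 0.0692 to 0.0878% of all deposited TPM. Added together they came to 763 ± 24.04 scaled TPM in the βPrlR+/- group (SD, n = 4) and to 786 ± 7.23 in the Prlr+/- group (SD, n = 3). This difference did not exceed the variation among animals (p = 0.229 by exact permutation, two-sided). Levels were concentrated in few genes. A level of 100 scaled TPM or more was reached by 2 members, 10 members were at 10 or above, 28 lay between 1 and 10, and 62 were below 1, of which 30 were below 0.1. The 10 most abundant members held 85.1% of the summed mean and the 15 most abundant held 90.9%.

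**Figure D1:**
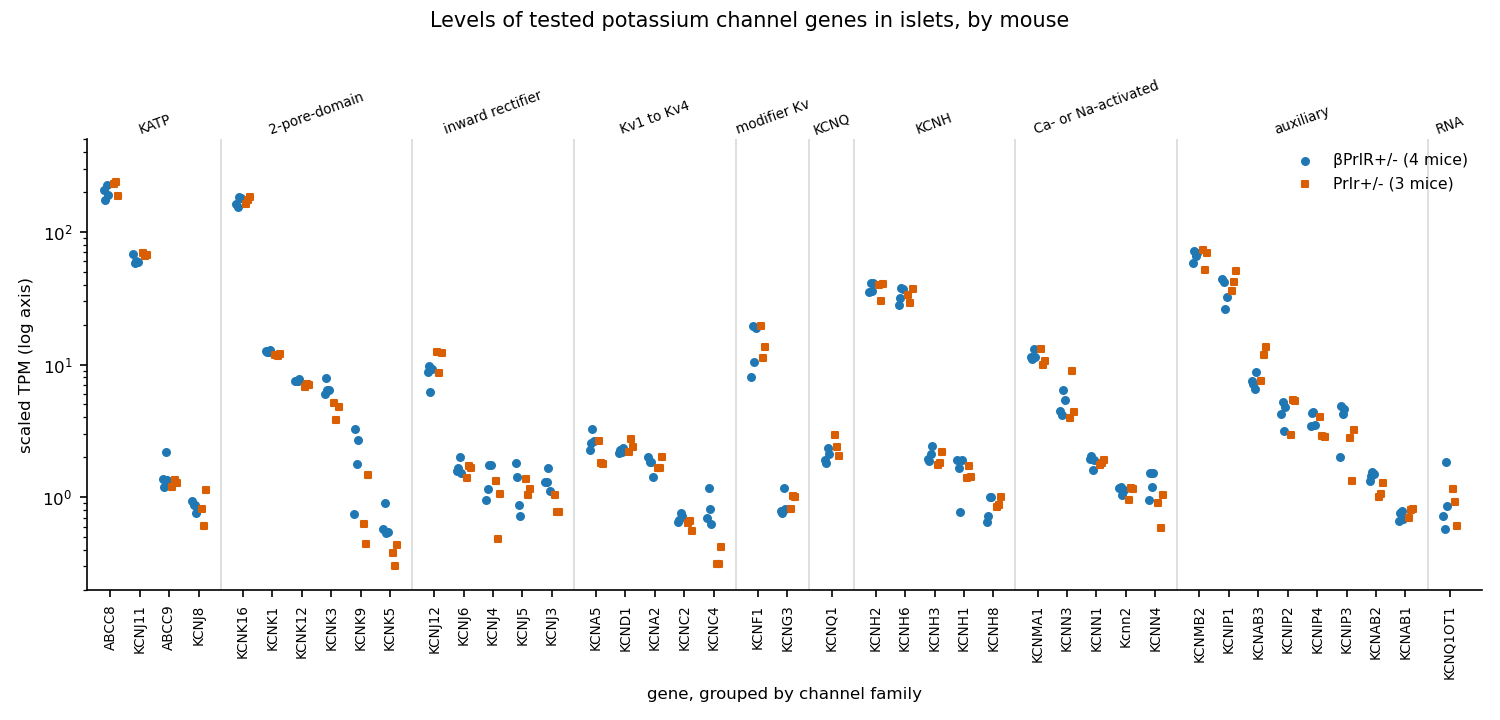
Scaled TPM (log axis) of 42 of the 48 tested genes in each of the 7 mice, grouped by channel family and ordered by level within a family; circles are βPrlR+/- mice and squares Prlr+/- mice. ABCC8, KCNK16, KCNMB2 and KCNJ11 stand at the top, and most other genes lie between 0.5 and 15 scaled TPM.

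ABCC8, the sulfonylurea receptor of the β-cell KATP channel, was the most abundant member. It stood at 209, 176, 224 and 191 scaled TPM in βPrlR+/- mice 1 to 4 and at 229, 240.1 and 186 in Prlr+/- mice 1 to 3. The groups overlapped, and the highest and the second lowest value both belonged to Prlr+/- mice. KCNJ11, the pore of the same channel, stood at 68.7, 58.8, 59.9 and 58.8 in βPrlR+/- mice and at 69.9, 65.4 and 66.5 in Prlr+/- mice. βPrlR+/- mouse 1 was level with the Prlr+/- mice, and the other βPrlR+/- mice were below all of them.

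The fitted difference (log2 fold change of scaled TPM + 1, Prlr+/- over βPrlR+/-) was 0.12 for ABCC8 (SE 0.12, 95% confidence interval -0.16 to 0.40, limma p of 0.337, exact permutation p of 0.400) and 0.13 for KCNJ11 (SE 0.07, interval -0.04 to 0.30, limma p of 0.116, exact permutation p of 0.114). On TPM without the scaling factor both were slightly negative, at -0.02 for each. Without βPrlR+/- mouse 1 the KCNJ11 groups did not overlap, and over the fits that left out 1 mouse its unadjusted limma p ranged from 0.0162 to 0.275. ABCC8 exceeded KCNJ11 by 3.25 ± 0.351 times (SD over 7 mice, range 2.79 to 3.74), and this ratio differed between the groups by -0.01 on the log2 scale (p = 0.943 by exact permutation of all 35 divisions of the mice).

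KCNJ8 and ABCC9, which form the KATP channel of blood vessels, were minor in these islets. KCNJ8 was found at 0.938, 0.878, 0.870 and 0.762 scaled TPM in βPrlR+/- mice and at 0.811, 0.603 and 1.12 in Prlr+/- mice, with the lowest and the highest mouse both in the Prlr+/- group. ABCC9 was found at 1.36, 1.184, 2.17 and 1.35 in βPrlR+/- mice and at 1.19, 1.34 and 1.27 in Prlr+/- mice, which overlapped, βPrlR+/- mouse 3 being the highest. KCNJ11 exceeded KCNJ8 by 77.1 ± 16.2 times and ABCC8 exceeded ABCC9 by 152 ± 28.5 times (SD over 7 mice). In the RefSeq annotation of GRCm38.p6 each pore gene has its receptor as the neighbouring gene, KCNJ11 beside ABCC8 and KCNJ8 beside ABCC9.

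**Figure D2:**
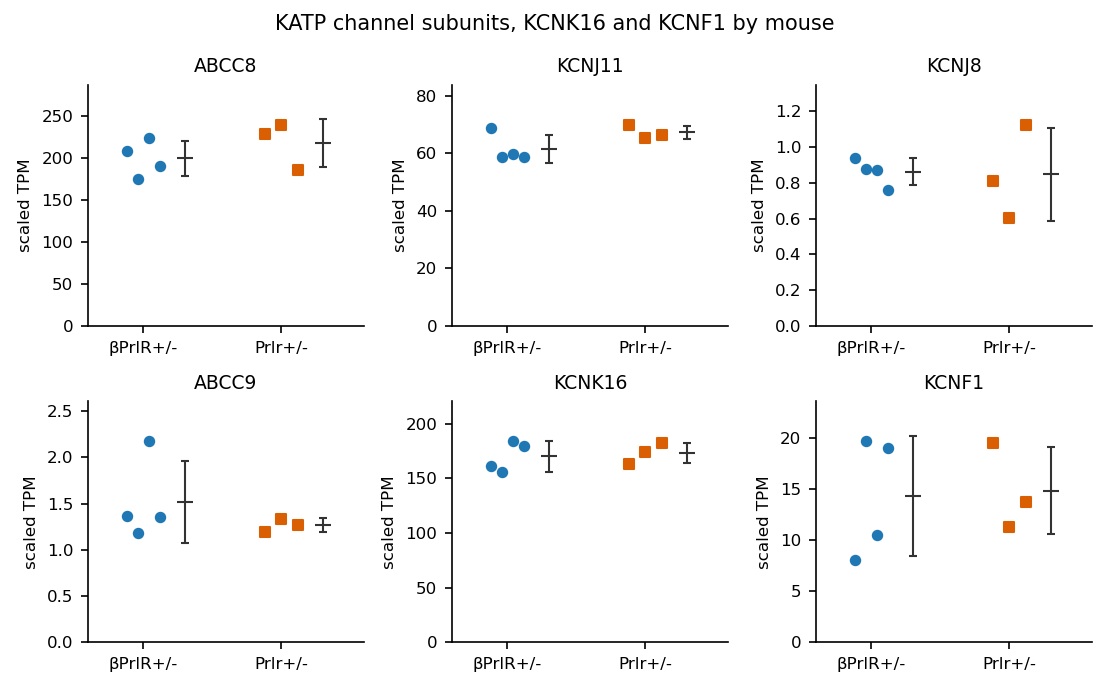
Scaled TPM (axes from 0) of the 4 KATP subunits, KCNK16 and KCNF1 in each mouse, with the mean and SD of each group beside its points. The groups overlap in all 6 panels; KCNF1 ranges from 8.03 to 19.6 within the βPrlR+/- mice.

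KCNK16, a 2-pore-domain channel of the islet that carries a background current, was the second most abundant member and the most abundant pore. It stood at 161, 156, 184 and 179 scaled TPM in βPrlR+/- mice and at 163, 174 and 182 in Prlr+/- mice with a coefficient of variation of 6.58% over the 7 mice. The groups overlapped throughout, and the fitted log2 fold change was 0.03 (SE 0.08, interval -0.17 to 0.22). Because of it the 2-pore-domain family supplied 46.2 ± 1.49% of all pore-forming scaled TPM (SD over 7 mice), against 17.5 ± 1.15% for the KCNH family and 15.0 ± 1.45% for the KATP pores. KCNK16 alone made up 39.5 ± 1.78%, and exceeded KCNJ11 by 2.69 ± 0.295 times. The shares count every transcript of a gene, predicted non-coding ones included.

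**Figure D3:**
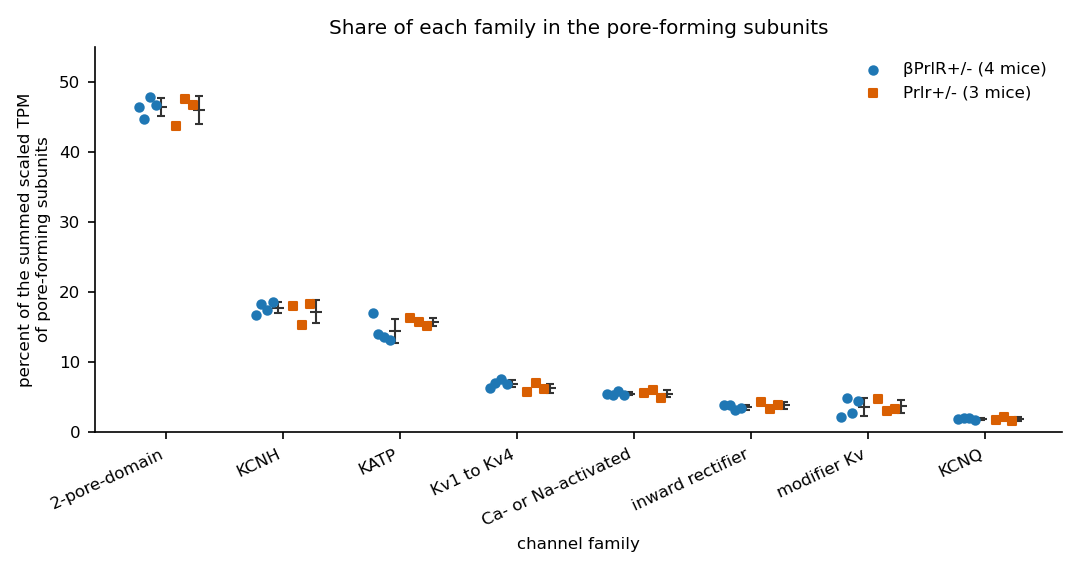
Percent of the summed scaled TPM of the pore-forming subunits held by each channel family in each mouse, with the mean and SD of each group. The 2-pore-domain family holds 43.8 to 47.8% in every mouse and the groups overlap in every family.

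The share of no family separated the groups. Of all potassium channel TPM, the KATP subunits held 34.6 ± 2.79% in βPrlR+/- and 36.6 ± 3.67% in Prlr+/- mice (two-sided exact permutation p = 0.429). The 2-pore-domain family held 26.4 ± 0.939% and 25.4 ± 1.42% (p = 0.229 in the same exact permutation test), and the auxiliary subunits 16.6 ± 1.77% and 16.8 ± 1.92% (exact permutation p = 0.857). With n = 4 and n = 3 the smallest p that this exact permutation test can give is 0.0286.

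The sequences before their start sites are shown for a pair of abundant members, KCNK16 and KCNMB2, and for KCNJ3 and KCNC4, whose levels separated the groups. Prolactin signals through STAT5, which binds the palindrome TTCNNNGAA, so the 250 bases upstream of each RefSeq start (GRCm38.p6) were searched for it, and matches are in capitals. The palindrome reads the same on both strands.
KCNK16, chr14:20269270-20269519, minus strand: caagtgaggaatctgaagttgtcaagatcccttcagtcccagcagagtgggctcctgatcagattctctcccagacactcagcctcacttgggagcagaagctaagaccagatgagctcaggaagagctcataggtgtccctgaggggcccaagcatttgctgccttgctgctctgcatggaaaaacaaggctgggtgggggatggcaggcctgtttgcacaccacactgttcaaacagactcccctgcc
KCNMB2, chr3:31902453-31902702, plus strand: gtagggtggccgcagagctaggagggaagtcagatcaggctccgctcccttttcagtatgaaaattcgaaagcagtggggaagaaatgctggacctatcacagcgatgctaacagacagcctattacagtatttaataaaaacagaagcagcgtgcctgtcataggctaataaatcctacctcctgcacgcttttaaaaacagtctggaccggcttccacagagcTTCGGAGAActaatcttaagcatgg
KCNJ3, chr2:55435720-55435969, plus strand: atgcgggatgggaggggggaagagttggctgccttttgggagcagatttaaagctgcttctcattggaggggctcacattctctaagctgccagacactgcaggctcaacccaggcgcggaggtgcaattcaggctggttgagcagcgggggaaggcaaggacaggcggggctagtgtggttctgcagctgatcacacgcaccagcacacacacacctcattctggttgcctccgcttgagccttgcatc
KCNC4, chr3:107458899-107459148, minus strand: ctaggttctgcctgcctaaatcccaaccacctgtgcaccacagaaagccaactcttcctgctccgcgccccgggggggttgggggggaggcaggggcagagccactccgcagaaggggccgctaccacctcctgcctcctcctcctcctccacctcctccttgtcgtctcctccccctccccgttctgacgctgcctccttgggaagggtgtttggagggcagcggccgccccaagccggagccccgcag

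Of these, only the KCNMB2 sequence holds the letters, which begin 25 bases before the start. A promoter was in the table for 72 members, and 7 of their 97 promoters held the palindrome (7.22%), in KCNJ9, KCNIP3, KCNMB2, KCNAB1, KCNIP1, KCNJ16 and KCNK4. Over all 32851 promoters of the table the share was 7.02% (2306). The match describes these letters in this window and is not a measure of binding. Promoters of the members had a median GC content of 58.8%, against 52.4% for all.

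The KCNH family, which holds the ERG-type channels that shape repolarisation, was second among the pores by its share of TPM in 5 of 7 mice and was just behind the KATP pores in βPrlR+/- mouse 1 and Prlr+/- mouse 2. KCNH2 stood at 35.5, 41.2, 35.9 and 41.2 scaled TPM in βPrlR+/- mice and at 40.0, 30.3 and 40.4 in Prlr+/- mice. KCNH6 stood at 28.3, 31.9, 38.1 and 37.1 in βPrlR+/- mice and at 33.4, 28.9 and 36.9 in Prlr+/- mice. Both overlapped, with Prlr+/- mouse 2 the lowest of all mice in KCNH2, and KCNH2 was above KCNH6 in 6 of 7 mice, with no test of that order. The fitted log2 fold changes were -0.07 (SE 0.12) for KCNH2 and -0.03 (SE 0.13) for KCNH6. Of the KCNH6 level, 57.7% was assigned to a predicted transcript that RefSeq labels as non-coding. The KCNH share includes it, and the place of the family without it was not computed. KCNH3, KCNH1 and KCNH8 lay between 0.652 and 2.44 scaled TPM in every mouse, and 0 of the 5 tested KCNH genes separated the groups.

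The voltage-gated Kv1 to Kv4 pores open on depolarisation, and KCNA5, KCND1 and KCNA2 among them lay between 1.43 and 3.26 scaled TPM over the 7 mice. KCNF1, a silent subunit, was the most variable of the 10 most abundant members, with a coefficient of variation of 33.3%.

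The values of KCNF1 were 8.03, 19.6, 10.5 and 19.0 scaled TPM in βPrlR+/- mice and 19.5, 11.3 and 13.7 in Prlr+/- mice. The 3 lowest belonged to βPrlR+/- mice 1 and 3 and Prlr+/- mouse 2, and so did the 3 highest sums of the acinar marker list (22171, 22544 and 18528 scaled TPM, against 2587 to 9779 in the other mice). This coincidence was noticed after the values were seen, and its part in the KCNF1 values was not tested.

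The calcium-activated BK channel was represented by its pore KCNMA1 and by KCNMB2, a β subunit that inactivates it. KCNMB2 was the third most abundant member, at 58.5, 72.1, 66.0 and 69.5 scaled TPM in βPrlR+/- mice and at 73.4, 51.3 and 69.1 in Prlr+/- mice. KCNMA1 stood at 11.3, 11.02, 13.2 and 11.4 in βPrlR+/- mice and at 13.1, 9.96 and 10.7 in Prlr+/- mice, so the auxiliary subunit was above its pore in every mouse. In both genes Prlr+/- mouse 2 was the lowest and the groups overlapped, with fitted log2 fold changes of -0.05 (SE 0.13) and -0.06 (SE 0.10). KCNMB1, KCNMB3 and KCNMB4, the other β subunits, were each below 0.6 scaled TPM in every mouse. The small-conductance genes KCNN3, KCNN1 and Kcnn2 and the intermediate-conductance gene KCNN4 ranged from 0.584 to 8.96.

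KCNIP1, a calcium-binding subunit of Kv4 channels, was the fifth most abundant member. It stood at 44.0, 42.2, 26.1 and 32.5 scaled TPM in βPrlR+/- mice and at 35.6, 41.7 and 50.7 in Prlr+/- mice, with βPrlR+/- mouse 3 the lowest (fitted log2 fold change 0.25, SE 0.20). Its pore partners were far lower. KCND1 stood at 2.15 to 2.76 over the mice, while KCND3 and KCND2 were below 0.5 in all of them.

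The inward rectifiers outside the KATP channel were led by KCNJ12, at 8.75, 9.74, 6.21 and 9.19 scaled TPM in βPrlR+/- mice and at 12.4, 8.69 and 12.2 in Prlr+/- mice. Prlr+/- mice 1 and 3 were above all others and mouse 2 was not, giving a fitted log2 fold change of 0.35 (SE 0.17, limma p of 0.0743, exact permutation p of 0.2). KCNQ1OT1, the long RNA that runs antisense within KCNQ1, was found at 0.720, 0.575, 1.84 and 0.859 in βPrlR+/- mice and at 1.16, 0.921 and 0.606 in Prlr+/- mice. Whether reads were assigned by strand is not stated, so the values of KCNQ1 and KCNQ1OT1 are uncertain.

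No potassium channel gene passed the test used here between the groups. The study's own test, Sleuth at a false discovery rate of 0.05, did list some as lower in Prlr+/- mice, KCNC4 and KCNQ5 among them. KCNQ5 was below the limit of 0.5 TPM and was not tested here. With limma and Benjamini-Hochberg adjustment over 14840 genes, 0 of 48 had an adjusted p below 0.05, where 10 of all genes tested did (0.0674%). An unadjusted p below 0.05 was found for 8 of 48 members (16.7%), 7 lower and 1 higher in Prlr+/- mice, where the share over all genes tested was 4.52%. A lower fitted value in Prlr+/- mice was found for 30 of 48 members (62.5%), against 48.3% of all genes tested. The median log2 fold change was -0.04 against 0.00 over all genes tested. The share with a lower value depended on level. At 10 scaled TPM or above it was 50% of members against 36.4% of all genes. At 1 to 10 it was 67.9% against 54.6%, and under 1 it was 60% against 65.6%. Taking TPM without the scaling factor moved the median of all genes to -0.12 and that of the members to -0.12, so that the members moved with the other genes; 43 of 48 members (89.6%) then had a lower value in Prlr+/- mice, against 88.1% of all genes tested, 13 members having changed sign.

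**Figure D4:**
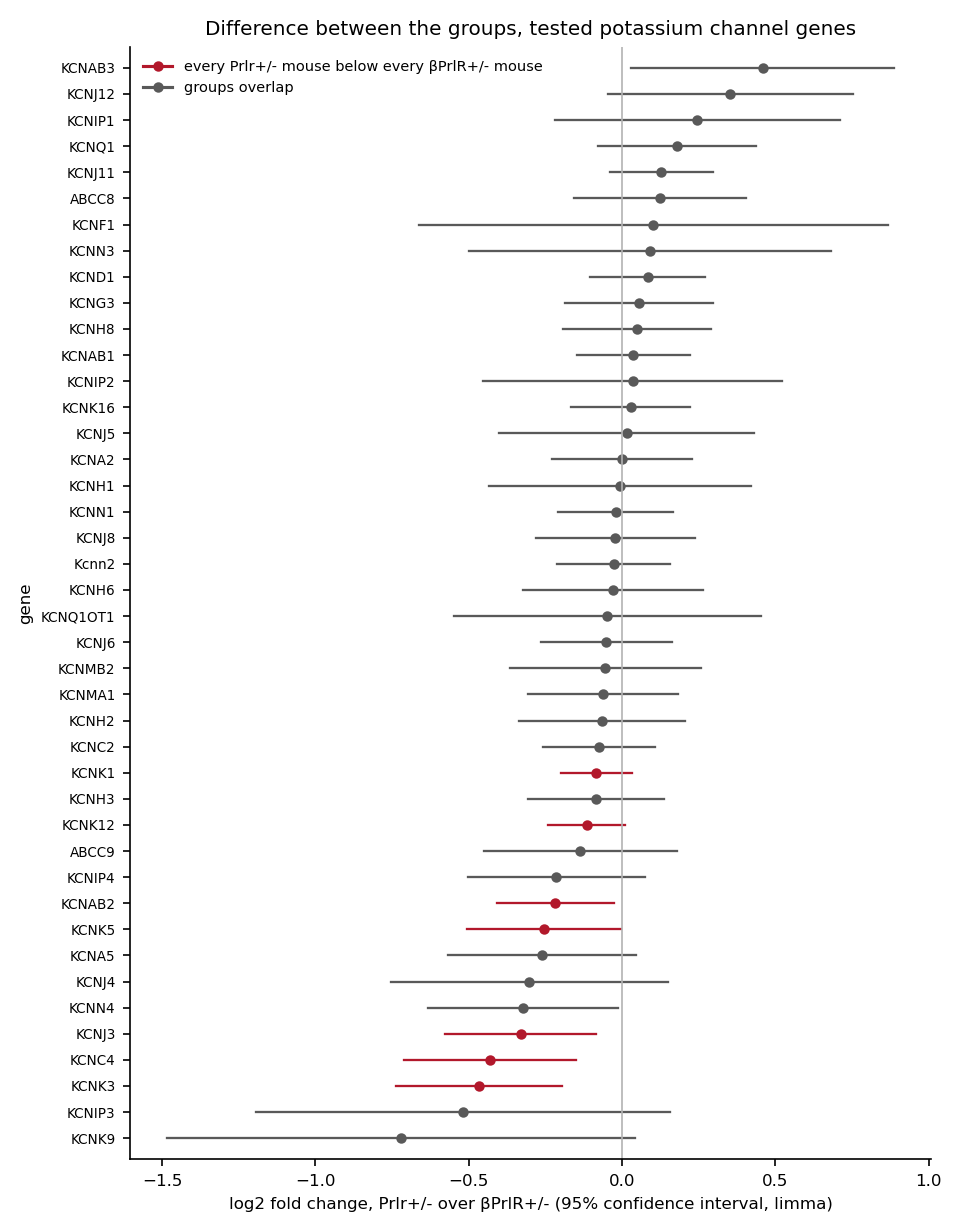
Log2 fold change, Prlr+/- over βPrlR+/- mice, with its 95% confidence interval from limma for 42 of the 48 tested genes, ordered by size; red marks genes in which every Prlr+/- mouse was below every βPrlR+/- mouse. The 7 red genes all lie left of 0, and 2 of them, KCNK1 and KCNK12, have intervals that reach past 0.

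In 8 of 48 members, among them KCNK1, KCNK12, KCNK3, KCNK5, KCNAB2, KCNJ3 and KCNC4, every Prlr+/- mouse was below every βPrlR+/- mouse. Over all genes tested this held for 462 of 14840, or 3.11%. The opposite, every Prlr+/- mouse above every βPrlR+/- mouse, was found for 0 of 48 members and for 273 of all genes (1.84%). None of the 8 passed the adjusted test, so these are descriptions by mouse. KCNC4 and KCNK5 reached the limit of 0.5 TPM through the βPrlR+/- mice alone, so the limit itself favoured counting them here. The separation also held for each of the 8 in TPM without the scaling factor, where the share over all genes tested was 8.42%.

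By family, 4 of the 8 were 2-pore-domain genes, of which 6 were tested. KCNK3, an acid-sensitive background channel also found in adrenal cells and neurons, had the largest fitted difference of the 8 on the scale log2(scaled TPM + 1). It was measured at 5.99, 7.93, 6.38 and 6.44 scaled TPM in βPrlR+/- mice and at 5.12, 3.81 and 4.77 in Prlr+/- mice. All Prlr+/- mice lay at or under 5.12, and βPrlR+/- mouse 2 was the highest. The fitted log2 fold change was -0.47 (SE 0.12, interval -0.74 to -0.19), with a limma p of 0.00449 and an adjusted p of 0.616.

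KCNK1, a weakly conducting background channel, was measured at 12.7, 12.5, 12.3 and 12.9 scaled TPM in βPrlR+/- mice and at 11.9, 11.6 and 12.1 in Prlr+/- mice. KCNK12, a relative thought to be silent by itself, was measured at 7.56, 7.53, 7.46 and 7.81 in βPrlR+/- mice and at 6.72, 7.08 and 7.00 in Prlr+/- mice. In both the mice of a group lay close together and the gap was small, with coefficients of variation over the 7 mice of 3.76% and 5.25%. Their fitted log2 fold changes were -0.08 (SE 0.05) and -0.11 (SE 0.05), with limma p of 0.136 and 0.0665.

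KCNK5, an alkaline-activated background channel, was measured at 0.577, 0.903, 0.538 and 0.544 scaled TPM in βPrlR+/- mice and at 0.379, 0.301 and 0.433 in Prlr+/- mice. It was the lowest of the tested members, and βPrlR+/- mouse 2 stood apart from the rest of its group (log2 fold change -0.25, SE 0.11, limma p of 0.0476, exact permutation p of 0.0286). With means of 0.640 in βPrlR+/- and 0.371 in Prlr+/- mice, KCNK5 reached the limit of 0.5 TPM through the former alone. Its p-values are therefore no support for a difference. In GRCm38.p6 it neighbours KCNK16, the most abundant pore, whose level was over 100 scaled TPM in every mouse. KCNK9, the closest relative of KCNK3, had the most negative fitted value of all tested members, -0.72, but its SE of 0.33 was also large, and its mice ranged from 0.742 to 3.25 in βPrlR+/- and from 0.447 to 1.47 in Prlr+/- mice.

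**Figure D5:**
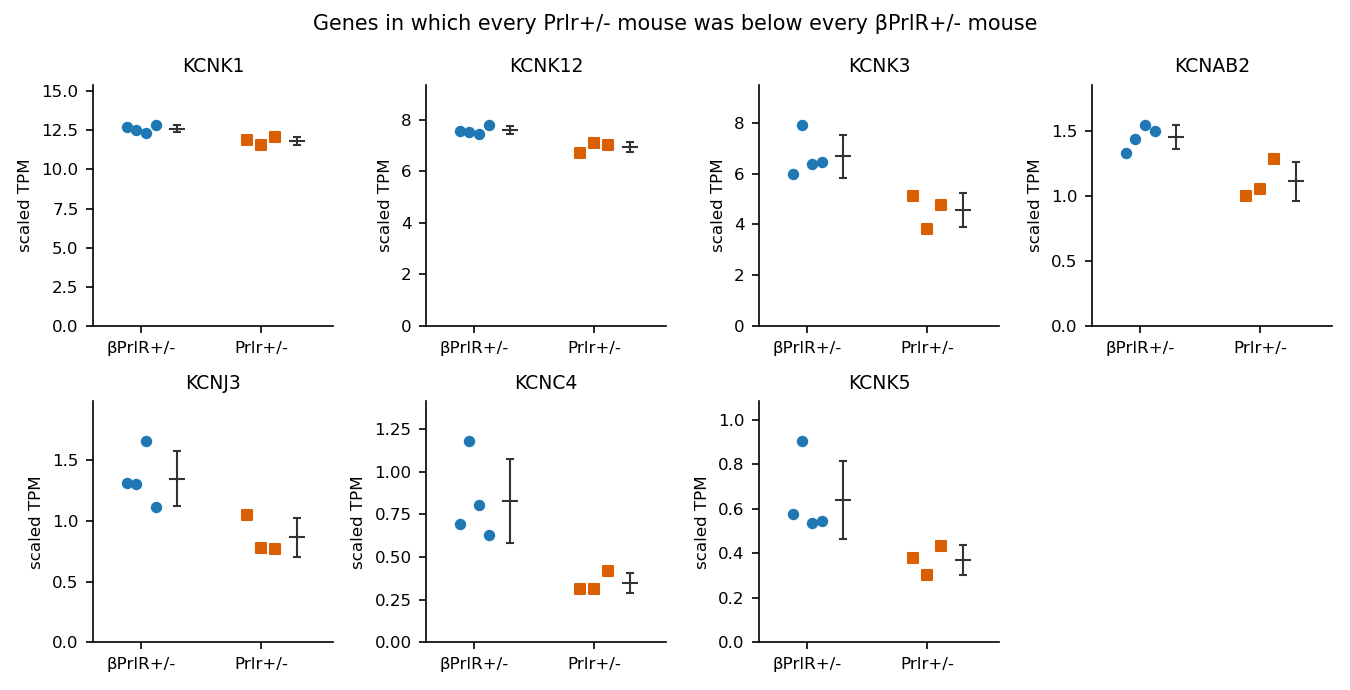
Scaled TPM (axes from 0) by mouse of 7 tested genes in which every Prlr+/- mouse was below every βPrlR+/- mouse, with the mean and SD of each group. The gap is narrow in KCNK1 and KCNK12 and wide, relative to the level, in KCNC4.

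KCNC4 was among the genes that the study itself picked from these samples, so its separation is not independent evidence. This gene, a fast voltage-gated pore of neurons and muscle, was measured at 0.693, 1.179, 0.808 and 0.628 scaled TPM in βPrlR+/- mice and at 0.315, 0.311 and 0.419 in Prlr+/- mice. The mean of the Prlr+/- mice was 0.421 times that of the βPrlR+/- mice. The fitted log2 fold change was -0.43 (SE 0.12, interval -0.71 to -0.15, limma p of 0.00795, exact permutation p of 0.0286, adjusted p of 0.759). With means of 0.827 in βPrlR+/- and 0.348 in Prlr+/- mice, KCNC4 reached the limit of 0.5 TPM through the former alone. These p-values are therefore no support for a difference. The fitted value is on scaled TPM + 1, so it understates differences in genes this low, and with 0.1 in place of 1 it was -1.02 for KCNC4, -0.64 for KCNK5, -0.59 for KCNJ3 and -0.36 for KCNAB2. Of the 3 RefSeq transcripts of KCNC4, 2 separated the groups, with shares of 51.1% and 45.8% of the gene.

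KCNQ5, also picked by the study, was under the limit of the test. It was found at 0.215, 0.245, 0.267 and 0.166 scaled TPM in βPrlR+/- mice and at 0.0775, 0.116 and 0.0981 in Prlr+/- mice. These values did not overlap but are a description at a low level, with no test.

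KCNJ3, a pore opened by G proteins, was measured at 1.31, 1.30, 1.65 and 1.11 scaled TPM in βPrlR+/- mice and at 1.04, 0.774 and 0.767 in Prlr+/- mice. Prlr+/- mouse 1 was close to βPrlR+/- mouse 4, and the fitted log2 fold change was -0.33 (SE 0.11, limma p of 0.0155, exact permutation p of 0.0571, adjusted p of 0.925). Its usual partners did not separate the groups, since KCNJ6 ranged from 1.40 to 1.995 and KCNJ5 from 0.726 to 1.81 over the mice, and KCNJ9 was not tested at a mean of 0.0910.

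KCNAB2, a cytoplasmic β subunit of Kv1 channels, was measured at 1.33, 1.44, 1.55 and 1.498 scaled TPM in βPrlR+/- mice and at 1.003, 1.06 and 1.28 in Prlr+/- mice, with Prlr+/- mouse 3 close to βPrlR+/- mouse 1 (log2 fold change -0.22, SE 0.08, limma p of 0.0315, exact permutation p of 0.0286). One of its transcripts, listed at 0 in each βPrlR+/- mouse, stood at 0.183, 0.118 and 0.649 in the Prlr+/- mice, the reverse of the gene as a whole. KCNAB3, from the same group of subunits, was the only member with an unadjusted p below 0.05 and a higher value in Prlr+/- mice. It stood at 6.57 to 8.85 in βPrlR+/- mice and at 7.54, 11.8 and 13.6 in Prlr+/- mice, which overlapped (log2 fold change 0.46, SE 0.18, limma p of 0.0394, exact permutation p of 0.114).

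When each mouse was left out in turn, KCNK3 and KCNC4 were among those that kept an unadjusted limma p below 0.05, with highest values of 0.0153 and 0.0250. Of the 8 with such a p, 5 lost it without at least 1 mouse, and KCNJ3 reached 0.0512. Over all settings the adjusted limma p ranged from 0.388 to 1 for KCNK3 and from 0.501 to 1 for KCNC4. Because KCNC4 reached the limit of 0.5 TPM through the βPrlR+/- mice alone, its kept unadjusted p is no support for a difference.

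Marker genes of the other cells an islet preparation can hold were counted in the same fit, in which 48.3% of all genes tested were lower in Prlr+/- mice, 3.11% were lower without overlap and 4.52% had an unadjusted p below 0.05. Of 19 tested markers of autonomic neurons 15 were lower in Prlr+/- mice, 12 without overlap and 2 (STMN2 and PRPH) with an adjusted p below 0.05, and the median log2 fold change was -0.48. Of the remaining 4, ELAVL4 was higher without overlap (log2 fold change 0.27, SE 0.08, limma p of 0.00984, adjusted p of 0.807). The summed level of the list was 410.4 to 538 scaled TPM in βPrlR+/- mice and 377 to 432 in Prlr+/- mice, most of it from DDC, VIP and NPY, and no marker of the list was at 0 in all mice. Of 13 tested endothelial markers 13 were lower, 6 of them at an unadjusted p below 0.05 and 0 at an adjusted one, with a median of -0.23 and sums of 210.0 to 248 and 175 to 214. Of 15 tested β-cell markers 13 were higher, with a median of 0.29. Among them 1 (MAFA, higher) had an unadjusted limma p below 0.05 and 0 an adjusted one. By fitted value, 8 of 9 α-cell, 8 of 10 δ- and PP-cell and 8 of 11 Schwann cell and glial markers were lower. So were 11 of 12 fibroblast, pericyte and smooth muscle markers. In the same fit 11 of 12 acinar, 4 of 7 duct and 8 of 10 leukocyte markers were higher. The acinar direction depended on the scale, since only RBPJL and BHLHA15 among these 12 had a higher group mean of scaled TPM in Prlr+/- mice. Across the lists named after the β-cell list 0 markers passed the adjusted limma test, and 5 were below an unadjusted p of 0.05. The part of these cells in the values of KCNC4, KCNK3 and the other separated genes was not tested, and in bulk RNA fewer cells of a type and less RNA per cell cannot be told apart.

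Outside the potassium channel genes, a list of other excitability genes (such as calcium, sodium, HCN and TRPM channels and pumps) had 21 of 35 tested genes (60.0%, against 48.3% of all genes tested) lower in Prlr+/- mice, 0 with an adjusted p below 0.05 and 3 (8.57%, against 4.52%) with an unadjusted one, at a median log2 fold change of -0.04. These 3, all lower, included SCN3B, a sodium channel β subunit (-0.29, SE 0.08), and CACNA2D3, a calcium channel subunit (-0.39, SE 0.13). The highest fitted value of the list was that of TRPM5, a calcium-activated cation channel (0.63, SE 0.29, limma p of 0.0674). Of 21 tested partners of potassium channels, such as DPP6 and SNAP25, 8 were lower, 0 had an adjusted or unadjusted p below 0.05, and the median was 0.03.

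The 52 members that were not tested had mean deposited TPM below 0.5, from KCNK10 at 0.484 downwards, while KCNK5, the lowest tested, had 0.533. KCNE1B, KCNS2 and Kcnmb4os1 were listed at 0 in all 7 mice. Among the 52, the mean was lower in Prlr+/- mice for 40 and higher for 9, and 6 had groups that did not overlap (KCNMB1, KCNK2, KCNQ3, KCNQ5, KCNS3 and KCNT2), all lower in Prlr+/- mice. Leaving out rows listed at 0 in all mice, these are 81.6% lower and 12.2% lower without overlap of 49 members, where the 13095 genes of the whole table under the same limit gave 60.0% and 3.37%. At these levels an exact 0 can be a failed estimate, and no weight is placed on single genes. Several families with well-known roles elsewhere were near the floor, among them the kidney rectifier KCNJ1 and the KCNE subunits, which were at no more than 0.692 scaled TPM in any mouse.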

How the data were processed

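Poly(A) RNA of islets from 7 mice (4 βPrlR+/-, 3 Prlr+/-, grouped by the labels of the tissue that lost the receptor) was made into strand-specific libraries. The authors assigned reads to mouse RefSeq transcripts with Kallisto 0.42.4; the genome build is not given in the sources used here. The authors call the deposited values FPKM, but these sum to 1000000 in each mouse. The values as deposited were therefore taken as TPM, normalised to a fixed total by the authors, which keeps no depth and allows no count test. Each gene value was the sum of its transcripts, so a gene with several transcripts depends on how reads were divided among them. The tables of single mice were not used here.

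To scale the libraries, a size factor (median of ratios over 14435 genes) was applied to each mouse, because insulin genes take much of the TPM. The test used genes whose mean TPM reached 0.5, on the scale log2(scaled TPM + 1), by limma 3.58.1 in R 4.3.3 with a mean-dependent variance, Benjamini-Hochberg adjustment over 14840 genes and a threshold of 0.05. On simulated data of this design, fitted over 14840 genes, 89.2% of changes of 1 and 95.2% of changes of 2 on the log2 scale were recovered. False calls were 6.30%. The changes were placed only in genes with a mean log2(scaled TPM + 1) above 2. KCNC4, KCNK5, KCNJ3 and KCNAB2 lie below that level, so these rates do not cover them or differences smaller than 1. Single values were compared by two-sided exact permutation of the 7 mice (Python 3.11.15). Alternatives were another or no scaling, a pseudocount of 0.1, other filters, other transforms, limma without trend or robust, and leaving out each mouse. Mice were treated as separate samples; no numbers pair them.

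The members, marker lists and pathway lists were chosen with earlier results of these data known, so counts over them are descriptions. Genes given by mouse were the KATP subunits, the 10 most abundant members, those whose groups do not overlap, genes the study picked (KCNQ5 and KCNC4 among them), and the most abundant tested member of each family. Gene names were matched to RefSeq (GRCm38.p6) for 98 of 100 members and to GENCODE M21 for 94. Some members are counted but not reported by name here. Most names are written as human symbols.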

Additional observations from a re-analysis of the deposited data

Results flagged for a closer look

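In 3 of the 48 tested potassium channel genes, 1 of the 4 βPrlR+/- mice stood apart from the rest of its group, its gap to the nearest mouse taking most of the range of the group (Dixon's ratio 0.879 to 0.893). Chance alone gives such a mouse in about 1 of 20 groups. KCNJ11 was 68.7 scaled TPM in βPrlR+/- mouse 1, where the other βPrlR+/- mice had 58.8 to 59.9. KCNK5 was 0.903 in βPrlR+/- mouse 2, where the others had 0.538 to 0.577. KCNG3, a silent Kv subunit, was 1.16 in βPrlR+/- mouse 3, where the others had 0.764 to 0.812. A different mouse stood apart in each gene.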

How the results depend on the processing

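In each setting tried, 0 potassium channel genes had an adjusted limma p below 0.05. The number with an unadjusted p below 0.05 (8) was 13 of 97 (13.4%, against 4.76% of all genes in that setting) when low genes were kept, 3 of 38 (7.89% against 4.13%) when the limit was a mean TPM of 1, and 4 to 9 when 1 mouse was left out. It was 4 (8.33% against 3.65%) without βPrlR+/- mouse 2, and 5 (10.4% against 3.81% and 3.34%) without mouse 3 or mouse 4 of that group. The number whose groups did not overlap with Prlr+/- lower (8) was 14 with no filter (14.4% against 3.23%), 5 with a mean of at least 1 (13.2% against 2.58%), and 8 to 12 with 1 mouse left out, the 12 (25% against 6.68%) being without βPrlR+/- mouse 1. With Prlr+/- higher it was 0 to 4 with 1 mouse left out, the 4 (8.33% against 5.02%) being without Prlr+/- mouse 1. Without a filter 70 of 97 members had a lower fitted value (72.2% against 53.8%), as more genes were tested. In TPM without the scaling factor, the median log2 fold change was -0.12 over the 48 tested members and -0.12 over all genes tested. No named gene that separated the groups changed direction in any setting. No paired analysis was possible because the labels give no number that pairs mice across the groups. With 3 and 4 mice, small differences such as those of KCNK1 and KCNK12 could not be resolved by the adjusted test, and depth is not known from TPM.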
